A study of Mus musculus with 18 samples.

Results

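A set of 10 genes of endosomal and lysosomal protein breakdown were described across thymic XCR1+ dendritic cells (DCs): the cathepsin genes Ctss, Ctsb, Ctsl, Ctsh, Ctsz, Ctsc, Ctsd and Ctse, the asparaginyl endopeptidase gene Lgmn and the thiol reductase gene Ifi30. They were taken by name, each through the probeset that the array annotation pairs with that symbol alone. All 10 of 10 were measured, by 1 probeset each, among 19938 genes. The 18 Affymetrix mouse whole-transcript arrays form 6 groups of 3. XCR1+ DCs were sorted from thymus by flow cytometry, as cells with CD11c, MHCII, CD8a and XCR1 and without CD11b and CD172a. Immature cells were CD117+ and CCR7-, and homeostatically matured cells were CD117- and CCR7+. The 3 backgrounds were wild-type B6 mice kept free of specific pathogens (CTRL), B6 mice with the genotype Ifnar1-KO, which lack a chain of the type I interferon receptor and were also kept free of specific pathogens, and germ-free wild-type B6 mice (GF). All mice were untreated, and no age is stated in the labels. It is also not stated whether arrays of one group stand for separate mice or for pools, so a p-value here weighs a difference against the spread of arrays, which may be technical.

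Proteins taken up by a DC are cut in acidified endosomes and lysosomes before fragments are loaded on MHC molecules. Endoproteases such as cathepsins S, B, L, D and E and asparaginyl endopeptidase cut inside the chain, and exopeptidases such as cathepsins H, Z and C trim its ends. Ifi30, also called GILT, reduces disulfide bonds so that folded proteins can be cut. In mouse DCs cathepsin S carries out late cuts of the invariant chain bound to MHC class II, whereas cathepsin L does so in cortical epithelium of the thymus.

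Promoter sequence from RefSeq (GRCm38.p6) was available for 7 of the 10 genes, Lgmn having a second start. Windows of 250 bases before to 50 bases after each start were searched on both strands for 5 short motifs. The stretches below are shown because Lgmn, Ctsd, Ifi30, Ctss and Ctsz are the genes with a window that rose with maturation, and each is the part of the window that holds the rarest motif found, or the bases next to the start where there was none. Capitals mark the motif. The Ctsd stretch is chr7:142387828-142387947 on the minus strand and holds TCACGTGA, the palindrome that MiT family factors such as TFEB and TFE3 bind in lysosomal genes. The Ifi30 stretch is chr8:70766764-70766883 on the minus strand and holds the same letters. The Ctss stretch is chr3:95526666-95526785 on the plus strand and holds GAAACCGAAA, a match to GAAANNGAAA, the repeat that interferon regulatory factors bind. The Ctsz stretch is chr2:174439037-174439156 on the minus strand and ends in GGGAAGGCCC, a match to the kappa B letters GGGANNNNCC. The Lgmn stretch is chr12:102439729-102439848 on the minus strand and holds none of the motifs searched.
Ctsd: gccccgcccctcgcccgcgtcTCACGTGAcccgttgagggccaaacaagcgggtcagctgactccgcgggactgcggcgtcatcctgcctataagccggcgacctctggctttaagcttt
Ifi30: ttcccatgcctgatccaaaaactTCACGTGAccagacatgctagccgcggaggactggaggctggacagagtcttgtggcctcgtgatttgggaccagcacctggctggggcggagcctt
Ctss: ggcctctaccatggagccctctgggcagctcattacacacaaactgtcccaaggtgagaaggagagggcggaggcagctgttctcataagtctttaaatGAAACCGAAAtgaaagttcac
Ctsz: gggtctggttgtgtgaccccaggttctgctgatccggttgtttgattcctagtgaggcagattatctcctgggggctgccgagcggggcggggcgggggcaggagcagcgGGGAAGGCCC
Lgmn: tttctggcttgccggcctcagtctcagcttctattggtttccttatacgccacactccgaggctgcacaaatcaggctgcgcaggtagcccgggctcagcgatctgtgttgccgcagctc

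The letters CACGTG, which TCACGTGA contains, were found in the windows of Ctsd, Ifi30 and Ctsl and at the second Lgmn start. They occur in 7.15% of all 32851 promoter windows of that length, and TCACGTGA occurs in 0.974%. The repeat GAAANNGAAA was found in the Ctss window alone among the windows of these genes, against 3.44% of all windows. The PU.1 core GAGGAA was in the windows of Ctss, Ctsc and Ifi30 (28.3% of all windows). A kappa B match, GGGANNNNCC, was in the Ctsz window and at the second Lgmn start (20.7% of all windows). These are matches of letters in a reference sequence, and no binding was measured here.

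The deposited values are RMA log2 intensities, and the median of an array lay between 4.37 and 4.57. Of 11 markers of XCR1+ DCs, 7 fell and 1 rose with maturation in each background, and Tlr3 is on that list as well as on a list below. The genes of the sort markers were set beside the gates. Xcr1 read 11.28 to 11.56 on CCR7- and 4.89 to 8.36 on CCR7+ arrays, and changed by -5.11, -4.54 and -4.39 in CTRL, Ifnar1-KO and GF. Itgax, which encodes CD11c, changed by -3.13, -2.14 and -2.52, and Kit, which encodes CD117, by -3.17, -2.96 and -2.87, each past the test. Ccr7 rose by 2.996, 4.002 and 3.96. Sirpa, which encodes the CD172a that the gate leaves out, rose by 0.89 in CTRL and 1.02 in Ifnar1-KO (limma adjusted p = 0.0296 and 0.0171) and differed by 0.77 in GF (0.0694). Xcr1, Itgax and Sirpa RNA thus moved away from the gate in CCR7+ cells, while Ccr7 and Kit followed it. Cd8a fell in CTRL (-0.73, limma adjusted p = 0.0079) and was not called in the other backgrounds, and Itgam, which encodes CD11b, was called in none. RNA of other cells was looked at through marker lists, in which 18 of 20 thymocyte genes and 11 of 12 macrophage genes were measured. The mean level of the thymocyte list was 4.51 to 5.18 on CCR7- arrays and 5.20 to 7.59 on CCR7+ arrays, with 4, 4 and 3 of its genes higher and 0 lower in CTRL, Ifnar1-KO and GF maturation. Ifnar1-KO CCR7+ replicate 2 was the array at 7.59, with the other CCR7+ arrays at 6.06 or below. The part of thymocyte RNA in the changes below was not tested, and values without the replicate 2 pair of Ifnar1-KO are given beside the member values that moved most. The macrophage list mean was 4.60 to 4.73 on CCR7- and 4.24 to 4.51 on CCR7+ arrays. Of the 11 genes, 0 rose and 2 fell in CTRL, and 1 rose and 2 fell in Ifnar1-KO and in GF. The genes that fell were Csf1r (-1.002 in CTRL) and Lyz2 (-2.49 in CTRL). The complement gene C1qb rose by 0.33 in Ifnar1-KO and 0.46 in GF (limma adjusted p = 0.0416 and 0.00502) and differed by 0.30 in CTRL (0.0531). C1qc differed by 0.15, 0.41 and 0.51 in CTRL, Ifnar1-KO and GF and was not called. Over the 18 arrays Adgre1 read 3.40 to 3.75, Mertk 3.40 to 3.67 and Cd163 3.39 to 3.59. The part of macrophage RNA was not tested. Of 10 thymic epithelial genes, Krt8 rose (1.03) and Epcam fell (-1.11) in CTRL, 1 fell in Ifnar1-KO and 1 rose in GF. Their mean level was 4.61 to 4.79 on CCR7- and 4.77 to 4.99 on CCR7+ arrays. Of 5 B cell genes 1 rose in each background. Of 5 plasmacytoid DC genes 1, 2 and 0 fell in CTRL, Ifnar1-KO and GF. Of 7 CD172a+ DC genes 1, 1 and 0 rose. The part of RNA from these cells was not tested. The Ifnar1 probeset read 7.27 to 8.07 in Ifnar1-KO against 8.06 to 8.09 in CTRL CCR7- cells, and 6.07 to 7.61 against 7.61 to 7.82 in CCR7+ cells. Where the deleted part lies relative to this probeset is not stated in the labels, so this probeset does not check them.

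The sex-linked genes differed between backgrounds, with Xist at 7.80 to 9.63 in CTRL, 6.14 to 8.91 in Ifnar1-KO and 3.80 to 4.37 in GF, and the Y-linked Eif2s3y at 3.34 to 3.49, 5.22 to 7.84 and 7.71 to 8.76. The sex of the mice and the background therefore cannot be told apart in comparisons between backgrounds. Each Ifnar1-KO array read Xist at 6.14 or more, above the GF arrays, and Eif2s3y at 5.22 or more, above the CTRL arrays. Whether an array holds RNA of mice of both sexes was not tested.

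The first question was how these genes change as XCR1+ DCs mature, taken as CCR7+ minus CCR7- within a background. In CTRL, 7 of the 10 rose (Lgmn, Ctsd, Ctsb, Ctsh, Ctsz, Ifi30 and Ctss), Ctse fell, and Ctsl and Ctsc did not pass the test. A gene was called at a Benjamini-Hochberg adjusted p under 0.05 over all 19938 genes in limma, and this called 12.6% of all genes higher and 13.6% lower in CTRL. All 10 genes had a mean level above that of the median gene. With only genes at or above the median level in the fit, 18.6% were called higher and 26.3% lower. The median change of the 10 genes was 0.81 on the log2 scale, beside 0.07 for all genes. The range was wide, from -1.86 to 3.46. In these bulk samples fewer cells of a type and less RNA per cell cannot be told apart.

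**Figure D1:**
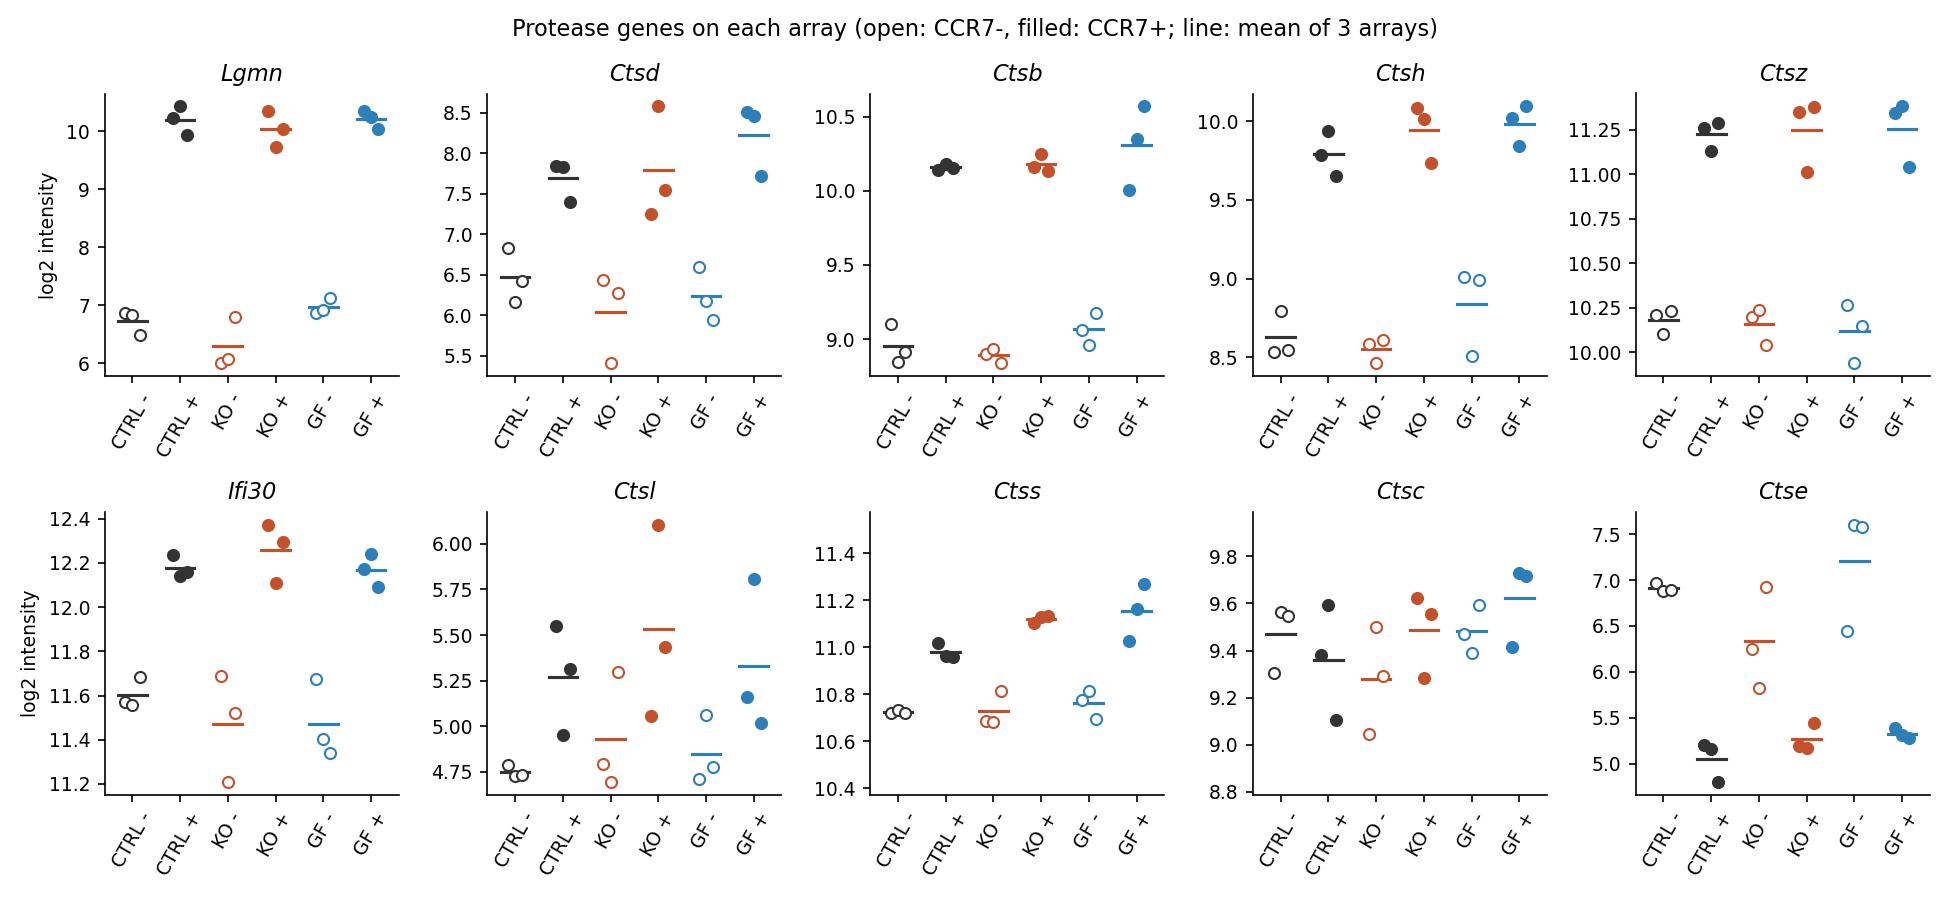
Log2 intensity (y axis) of each of the 10 genes on every array, with 1 panel per gene and its own y scale. Columns are CTRL, Ifnar1-KO (KO) and GF cells, open points CCR7- (-) and filled points CCR7+ (+) arrays, and lines the means of 3 arrays. In Lgmn the 9 filled points lie at 9.73 or above and the 9 open points at 7.13 or below, in Ctse the order is turned, and in Ctsc and Ctsl the stages overlap.

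Lgmn (probeset 10402268) encodes asparaginyl endopeptidase, which cuts after asparagine and also trims other lysosomal proteases. Its CTRL levels were 6.88, 6.84 and 6.48 in CCR7- cells and 10.23, 10.42 and 9.92 in CCR7+ cells. Ifnar1-KO levels were 6.005, 6.07 and 6.81 against 10.34, 9.73 and 10.04. GF levels were 6.87, 6.91 and 7.13 against 10.34, 10.24 and 10.04. All 9 CCR7+ arrays lay above all 9 CCR7- arrays, with a gap wider than the spread within any group. The CTRL change was 3.46 ± 0.21 (log2 ± SE, n = 3 arrays per group, limma adjusted p = 1.84e-08), a fold of 11. It was the 53rd largest rise of the 19938 genes. The change was 3.74 in Ifnar1-KO (fold 13.4, limma adjusted p = 8.3e-09) and 3.23 in GF (fold 9.40, limma adjusted p = 3.82e-08), and the 95% half-width of each was 0.44.

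Ifi30 (10579347), the thiol reductase gene, rose in each background. CTRL levels were 11.57, 11.56 and 11.69 in CCR7- and 12.24, 12.14 and 12.16 in CCR7+ cells. In Ifnar1-KO they were 11.69, 11.21 and 11.52 against 12.37, 12.11 and 12.29, and in GF 11.68, 11.40 and 11.34 against 12.17, 12.24 and 12.09. The stages did not overlap over the 18 arrays, although the CCR7- arrays of Ifnar1-KO and GF spread more than those of CTRL. The change was 0.57 ± 0.12 in CTRL (limma adjusted p = 0.00157), 0.79 in Ifnar1-KO and 0.70 in GF, folds of 1.49, 1.73 and 1.62.

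Of the cysteine cathepsins that cut inside chains, Ctsb, Ctss and Ctsl, the change was largest in Ctsb. Cathepsin B cuts inside chains and also takes dipeptides from their carboxyl end. Ctsb (10415844) read 9.10, 8.85 and 8.91 in CTRL CCR7- and 10.14, 10.18 and 10.16 in CTRL CCR7+ cells. Its Ifnar1-KO levels were 8.90, 8.94 and 8.84 against 10.16, 10.25 and 10.14, and its GF levels were 9.06, 8.96 and 9.18 against 10.004, 10.35 and 10.57. Each CCR7+ array exceeded each CCR7- array, and GF CCR7+ cells spread widest. Ctsb rose by 1.20 ± 0.11 in CTRL (fold 2.30, limma adjusted p = 1.49e-06), 1.29 in Ifnar1-KO and 1.24 in GF.

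Ctss (10494271), the invariant chain protease of DCs, had the smallest rise that passed the test and the smallest spread of the 10 genes (limma moderated SD 0.08). CTRL levels were 10.72, 10.73 and 10.72 in CCR7- and 11.02, 10.96 and 10.96 in CCR7+ cells. In Ifnar1-KO they were 10.69, 10.68 and 10.81 against 11.10, 11.13 and 11.13, and in GF 10.77, 10.81 and 10.70 against 11.03, 11.16 and 11.27. The stages did not overlap, but the nearest arrays were close. The CTRL change was 0.25 ± 0.07 (fold 1.19, limma adjusted p = 0.00987), and 0.39 in both Ifnar1-KO and GF (fold 1.31, limma adjusted p = 0.000431 and 0.000432). After centring of every array on its own median the CTRL change was 0.16 and did not pass (limma adjusted p = 0.183).

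Ctsl (10410124), the cathepsin that serves cortical epithelium in mice, did not pass in any background. It read 4.79, 4.73 and 4.73 in CTRL CCR7- and 5.55, 4.95 and 5.32 in CTRL CCR7+ cells, so the 3 CTRL CCR7+ arrays lay above the 3 CCR7- arrays. Ifnar1-KO levels were 4.80, 4.70 and 5.30 against 5.06, 6.10 and 5.44, and GF levels were 4.71, 5.06 and 4.78 against 5.16, 5.81 and 5.02. In those backgrounds the stages overlapped. The differences were 0.52 ± 0.26 in CTRL (limma adjusted p = 0.151), 0.60 in Ifnar1-KO (0.127) and 0.48 in GF (0.23). The CTRL difference passed with array weights (0.56, limma adjusted p = 0.0404) and with only the CTRL arrays in the fit (0.0319). The Ifnar1-KO difference was 0.84 and passed without CCR7+ replicate 1 (limma adjusted p = 0.0392). The highest Ctsl level, 6.10, was on the array with the highest thymocyte marker mean, and without both replicate 2 arrays of Ifnar1-KO the difference was 0.20 (limma adjusted p = 0.74).

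The exopeptidases did not move as one. Cathepsin H removes single residues from the amino end, and Ctsh (10587733) read 8.54, 8.80 and 8.55 in CTRL CCR7- and 9.78, 9.94 and 9.65 in CTRL CCR7+ cells. The other backgrounds had 8.59, 8.46 and 8.61 against 10.08, 10.02 and 9.74 (Ifnar1-KO) and 9.01, 8.51 and 8.99 against 10.02, 9.84 and 10.09 (GF). No CCR7- array reached a CCR7+ array. Ctsh rose by 1.17 ± 0.14 in CTRL (fold 2.24, limma adjusted p = 1.31e-05), 1.39 in Ifnar1-KO and 1.15 in GF.

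Cathepsin Z, also called cathepsin X, removes single residues from the carboxyl end. Ctsz (10490212) read 10.21, 10.10 and 10.23 in CTRL CCR7- and 11.26, 11.13 and 11.29 in CTRL CCR7+ cells. Ifnar1-KO levels were 10.20, 10.24 and 10.04 against 11.35, 11.01 and 11.38, and GF levels were 10.27, 9.94 and 10.15 against 11.34, 11.38 and 11.04. The stages did not overlap, and the group means lay between 10.12 and 10.18 in CCR7- cells and between 11.225 and 11.255 in CCR7+ cells. Ctsz rose by 1.04 ± 0.12 in CTRL (fold 2.06, limma adjusted p = 8.23e-06), 1.09 in Ifnar1-KO and 1.14 in GF.

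Cathepsin C is the dipeptidyl peptidase that activates granzymes and other serine proteases of granules. Ctsc (10554789) read 9.30, 9.56 and 9.55 in CTRL CCR7- and 9.38, 9.59 and 9.11 in CTRL CCR7+ cells. Ifnar1-KO levels were 9.05, 9.50 and 9.29 against 9.62, 9.28 and 9.55, and GF levels were 9.47, 9.39 and 9.59 against 9.42, 9.73 and 9.72. The stages overlapped in each background. The CTRL difference was -0.11 with a 95% interval from -0.42 to 0.20 (limma adjusted p = 0.612), and it was 0.21 in Ifnar1-KO and 0.14 in GF (0.42 and 0.603). Without both replicate 2 arrays of Ifnar1-KO its difference there was 0.42 (limma adjusted p = 0.0947). The upper bounds of these intervals were 0.20, 0.52 and 0.45.

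The aspartic proteases Ctsd and Ctse moved in opposite directions. Cathepsin D is the broadly expressed aspartic protease of lysosomes. Ctsd (10569319) read 6.83, 6.16 and 6.42 in CTRL CCR7- and 7.85, 7.83 and 7.40 in CTRL CCR7+ cells. Ifnar1-KO levels were 6.44, 5.41 and 6.28 against 7.25, 8.58 and 7.55, and GF levels were 6.59, 6.18 and 5.94 against 8.51, 8.47 and 7.72. The stages did not overlap, but Ctsd had the widest spread of the 10 genes (limma moderated SD 0.42). It rose by 1.22 ± 0.35 in CTRL (fold 2.34, limma adjusted p = 0.0163), 1.75 in Ifnar1-KO (fold 3.37, 0.00165) and 1.996 in GF (fold 3.99, 0.000544). The CTRL call was lost without CTRL CCR7- replicate 2 (1.07, limma adjusted p = 0.0711), CTRL CCR7+ replicate 1 (1.15, 0.0547) or CTRL CCR7+ replicate 2 (1.16, 0.0501). Both the lowest level, 5.41, and the highest, 8.58, were on replicate 2 arrays of Ifnar1-KO, the CCR7+ one being the array with the highest thymocyte marker mean. Without that pair the Ifnar1-KO rise was 1.04 (limma adjusted p = 0.0221).

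Cathepsin E is an aspartic protease of endosomes with a narrow expression that includes DCs and the stomach. Ctse (10349648) read 6.96, 6.88 and 6.89 in CTRL CCR7- and 5.20, 5.16 and 4.80 in CTRL CCR7+ cells. Ifnar1-KO levels were 6.25, 5.82 and 6.93 against 5.19, 5.18 and 5.45, and GF levels were 6.45, 7.60 and 7.58 against 5.39, 5.31 and 5.28. All 9 CCR7+ arrays lay below all 9 CCR7- arrays, and the CCR7- arrays of Ifnar1-KO and GF were far more spread (SD 0.56 and 0.66, n = 3) than those of CTRL (SD 0.05). Ctse fell, by -1.86 ± 0.28 in CTRL (fold 3.62, limma adjusted p = 0.000137), -1.06 in Ifnar1-KO (fold 2.09, 0.0126) and -1.88 in GF (fold 3.68, 0.000138). The Ifnar1-KO call was lost with only those arrays in the fit (limma adjusted p = 0.0531) and without Ifnar1-KO CCR7- replicate 3, where the value was -0.77 (0.0705).

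The counts were the same in each background, 7 genes higher and 1 lower of 10, and the same 8 genes made them up. In Ifnar1-KO maturation 9.42% of all genes were called higher and 10.8% lower, and in GF maturation 9.53% and 11.8%. With only genes at or above the median level the shares were 18.2% and 22.1% in Ifnar1-KO, and 17.2% and 23.6% in GF. The median change of the 10 genes was 0.94 in Ifnar1-KO and 0.92 in GF, beside 0.00 and 0.03 over all genes. In 7 of the 10 genes the 9 CCR7+ arrays all lay above the 9 CCR7- arrays, which 7% of all genes did. In 1 of 10 they all lay below, which 8.28% of all genes did. Without both replicate 2 arrays of Ifnar1-KO the same 8 genes were called in its maturation, with Lgmn at 3.78 and Ctse at -1.27. Ctsc and Ctsl were the members whose stages overlapped.

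**Figure D2:**
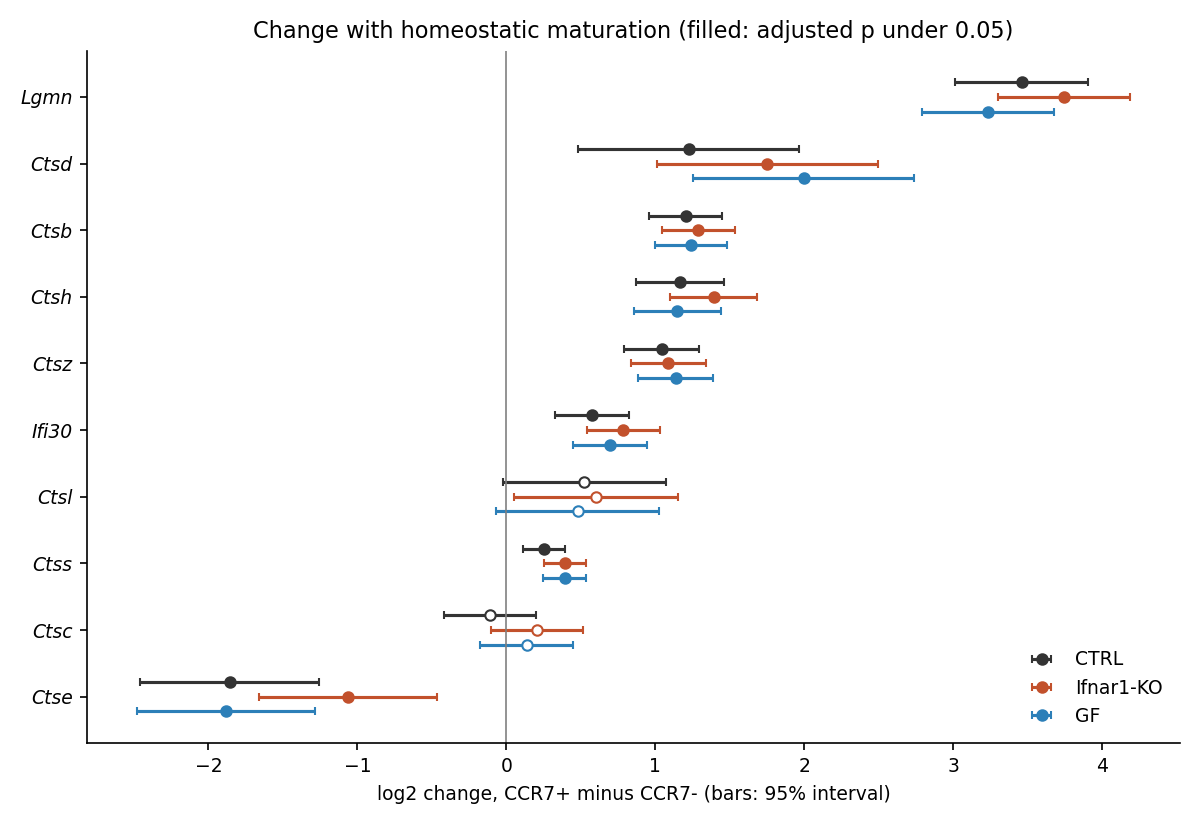
Change with maturation (x axis, log2, CCR7+ minus CCR7-) of the 10 genes (y axis) in CTRL, Ifnar1-KO and GF, 3 arrays per group. Points are limma estimates with 95% intervals, filled where the adjusted p was under 0.05. Lgmn stands at 3.23 to 3.74, Ctsd, Ctsb, Ctsh and Ctsz between 1.04 and 1.996, Ctse between -1.88 and -1.06, and the points of Ctsl and Ctsc are open.

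The second question was whether the size of these changes depends on type I interferon signalling or on the microflora. The difference of the maturation change from CTRL was tested directly, and 0 of the 10 genes passed for Ifnar1-KO or for GF in limma, with 0 of 10 at an unadjusted p under 0.05. Over all genes 0% were called in each of these comparisons, with 901 and 660 genes at an unadjusted p under 0.05 and smallest adjusted p-values of 0.837 and 0.999. For Ifnar1-KO the difference was positive in 10 of 10 genes, from 0.04 in Ctsz to 0.79 in Ctse. Their median was 0.22, beside -0.03 over all genes, of which 42.8% had a positive difference. Without both replicate 2 arrays of Ifnar1-KO it was positive in 8 of 10, with Ctsd at -0.18 and Ctsl at -0.32. With 1 array left out Ctsl was as low as -0.21 (Ifnar1-KO CCR7+ replicate 2) and Ctsz as low as -0.02 (Ifnar1-KO CCR7+ replicate 3). For GF it was positive in 6 and negative in 4, beside 45.2% positive over all genes, from -0.23 in Lgmn to 0.77 in Ctsd. Both comparisons use the same CTRL arrays, so their values are not independent of each other.

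The intervals show what sizes the 3 arrays a group could leave undetected. For Ctse the Ifnar1-KO fall was 0.79 ± 0.40 smaller than the CTRL fall, with a 95% interval from -0.05 to 1.64 (unadjusted p = 0.0643, limma adjusted p = 0.958). For Lgmn the Ifnar1-KO difference of 0.28 had an interval from -0.34 to 0.91 and the GF difference one from -0.85 to 0.40. For Ctsd the GF difference of 0.77 had an interval from -0.28 to 1.82, and the Ifnar1-KO difference of 0.53 one from -0.52 to 1.58. For Ctsb and Ctsz the intervals stayed within -0.31 to 0.45 in both comparisons. A p that missed the threshold does not show that the changes were equal.

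Backgrounds were also compared within a stage. Of the 10 genes, 0 passed in any of the 4 comparisons in limma. Over all genes 0% were called for Ifnar1-KO minus CTRL in CCR7- cells, 0.015% in CCR7+ cells, 0.015% for GF minus CTRL in CCR7- cells and 0.0301% in CCR7+ cells. The corresponding numbers of genes with an unadjusted p under 0.05 were 1401, 582, 1260 and 1168. In Ifnar1-KO CCR7- cells the values furthest from 0 were -0.58 in Ctse (unadjusted p = 0.0578) and -0.44 in Lgmn (unadjusted p = 0.0527), each with a limma adjusted p of 0.681. Without the replicate 2 pair of Ifnar1-KO they were -0.32 and -0.33, and Ctsd there went from -0.43 to -0.11. In CCR7+ cells Ctsd went from 0.10 to -0.29 without that pair and Ctsl from 0.26 to -0.03.

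Only Ctss had an unadjusted p under 0.05 among the 10 genes. In CCR7+ cells it was 0.14 above CTRL in Ifnar1-KO (unadjusted p = 0.0496, limma adjusted p = 1) and 0.17 above CTRL in GF (unadjusted p = 0.0201, limma adjusted p = 0.765). The 3 arrays of either background lay above the 3 CTRL arrays, which are the same arrays in both comparisons. Ctse read 5.28 or more in GF CCR7+ cells against 5.20 or less in CTRL CCR7+ cells, a difference of 0.27 that did not pass (unadjusted p = 0.346, limma adjusted p = 0.93). Neither gene passed the adjustment, and the sex-linked genes given above differed between the same arrays.

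**Figure D3:**
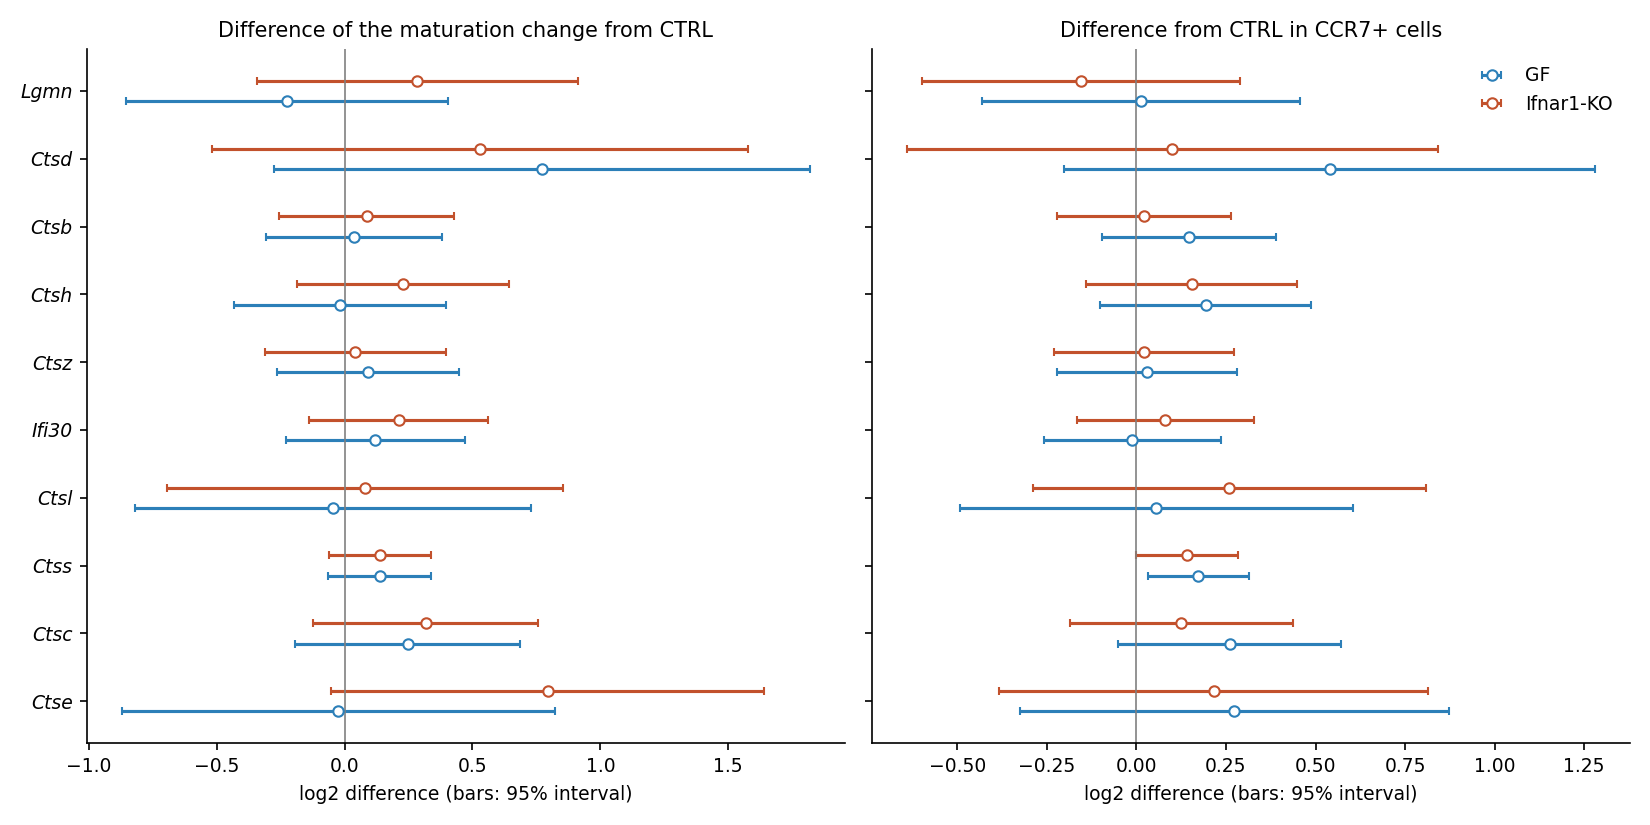
Log2 differences from CTRL (x axes) for the 10 genes (y axis), with Ifnar1-KO in orange and GF in blue, and bars for 95% intervals from limma. The left panel shows the difference of the maturation change and the right panel the difference in CCR7+ cells. No left interval lies away from 0, and in the right panel the Ctss intervals (0.03 to 0.31 in GF) are the ones that do.

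Genes that sort these proteases, acidify their compartment or work beside them, and genes of protease inhibitors in general, were described from lists. Of the other cathepsin genes, 6 of 6 were measured, 2 fell and 0 rose in CTRL maturation, with a list median of 0.03 beside 0.07 over all genes. Those were Ctsa, the serine carboxypeptidase that also protects neuraminidase, at -0.72 ± 0.20 (limma adjusted p = 0.0149), and Ctso at -0.73 ± 0.24 (0.0337). The Ctso call was lost without any 1 of 5 CTRL arrays, all but CCR7+ replicate 2, at limma adjusted p-values of 0.0541 to 0.145. In Ifnar1-KO 0 of the 6 were called. In GF, Ctsa fell (-0.81) and Ctsw, a cathepsin of cytotoxic lymphocytes, rose by 0.28, a call lost in 9 of 28 alternatives. The cathepsins known from the placenta, of which 6 of 8 were measured, had 0 calls in any background.

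Among protease inhibitors the calls were rises. Of 13 listed cystatins and intracellular serpins 11 were measured, and 5 rose and 0 fell in each background, with a CTRL median of 0.22. Serpinb1a, an inhibitor of neutrophil serine proteases, rose by 5.21 ± 0.24 in CTRL (limma adjusted p = 1.93e-09), 6.13 in Ifnar1-KO and 5.48 in GF. Serpinb9, the granzyme B inhibitor, rose by 3.43 ± 0.16 in CTRL, and the related Serpinb6a and Serpinb6b rose by 2.61 and 2.71. Cstb, the cytosolic inhibitor of cysteine cathepsins, rose by 1.17 ± 0.13 (limma adjusted p = 6.12e-06). Cst3, the secreted cysteine protease inhibitor, differed by 0.10 ± 0.06 (0.302) and was not called.

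Other peptidases of the same compartments moved both ways. Of 9 listed, 8 were measured, and 3 rose and 2 fell in CTRL. Scpep1, a serine carboxypeptidase, rose by 2.80 ± 0.17 (limma adjusted p = 2.36e-08), the tripeptidyl peptidase Tpp1 by 1.91 ± 0.23 and the intramembrane protease Sppl2a, which cuts the last stub of the invariant chain, by 0.48 ± 0.09. The same 3 genes rose in Ifnar1-KO and GF. In CTRL, Napsa, an aspartic protease, changed by -1.11 ± 0.32 (0.017) and the dipeptidyl peptidase Dpp7 by -0.91 ± 0.32 (0.0472). The CTRL Napsa call was lost without CTRL CCR7- replicate 1 or CTRL CCR7+ replicate 3 (limma adjusted p = 0.0675 and 0.0748). The CTRL count of 2 was 0 or 1 when 1 of 12 arrays was left out. Dpp7 differed by -0.18 in Ifnar1-KO and -0.13 in GF (limma adjusted p = 0.802 and 0.848) and was not called there. Napsa differed by -0.84 in Ifnar1-KO (limma adjusted p = 0.0809) and was not called, but passed in 3 alternatives. In GF Napsa changed by -0.95 (limma adjusted p = 0.0453), a call lost in 15 alternatives.

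Receptors that carry proteases to lysosomes changed in both directions. Of 13 genes of cargo sorting 12 were measured, with 5 higher and 2 lower in CTRL and 4 higher and 2 lower in Ifnar1-KO and in GF. Igf2r, the larger mannose 6-phosphate receptor, fell by 2.19 in CTRL, and Nagpa, which uncovers the mannose 6-phosphate signal, fell by 1.33. Sort1, the alternative sorting receptor sortilin, rose by 2.51, and the adaptors Gga2 and Gga3 by 1.24 and 1.11. In GF the Igf2r call was lost with only the GF arrays in the fit (limma adjusted p = 0.0552). That call was also lost without GF CCR7- replicate 1 or GF CCR7+ replicate 3 (limma adjusted p = 0.0979 and 0.0799).

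The vacuolar proton pump, which acidifies the compartment, had 17 of 18 genes measured, and 7 rose and 2 fell in CTRL (median 0.27). Its membrane subunits of the a type moved apart. Atp6v0a1 rose by 2.60 ± 0.25 (limma adjusted p = 2.14e-06), whereas Atp6v0a2 fell by 2.43 ± 0.13 (6.38e-09) and Tcirg1, the a3 subunit gene, changed by -1.71 ± 0.38 (0.00335). Atp6v0a1 rose by 2.76 in Ifnar1-KO and 2.59 in GF, and Atp6v0a2 changed by -2.27 and -2.35. Tcirg1 was not called in Ifnar1-KO (-1.02, limma adjusted p = 0.0766) and fell in GF (-1.27, 0.0259). Of the 17 genes, 5 rose and 1 fell in Ifnar1-KO (median 0.35), and 4 rose and 2 fell in GF (median 0.17). The count of 7 was 4 with arrays centred on their medians and without any 1 of CTRL CCR7- replicates 1, 2 or 3 or CTRL CCR7+ replicate 1.

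Of the 4 MiT factor genes, Tfe3 rose by 0.74 ± 0.20 in CTRL (limma adjusted p = 0.0119), a call lost without CTRL CCR7- replicate 2 (0.60, 0.0638). Tfe3 differed by 0.58 in Ifnar1-KO and 0.51 in GF (0.0525 and 0.0821) and did not pass there. It passed in 9 of 28 alternatives in Ifnar1-KO (limma adjusted p = 0.0107 to 0.0488) and in 4 of 28 in GF (0.04 to 0.0493), and was 0.77 in Ifnar1-KO without its CCR7- replicate 2. Tfeb, the best known activator of lysosomal genes, differed by -0.39 ± 0.18 in CTRL (0.123).

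The MHC class II genes served by these proteases went the opposite way from most of the 10. Of 10 listed, 8 were measured, and 6 fell and 0 rose in CTRL, with a median of -0.88. In Ifnar1-KO and GF 5 fell. Ciita, the class II transactivator, fell by 3.42 ± 0.21 in CTRL (limma adjusted p = 2.21e-08), and H2-DMa, which exchanges the invariant chain fragment for peptide, fell by 2.98 ± 0.23. H2-Ob (-2.61) and H2-Oa (-1.33), both genes of the H2-O modulator, also fell, as did the class II chain genes H2-Ab1 (-0.43) and H2-Eb1 (-0.40). Cd74, the invariant chain gene, differed by -0.09 ± 0.09 (0.525). Of the 5 endosomal receptor genes, whose products are cut by cathepsins and asparaginyl endopeptidase or travel with them, 4 fell in CTRL and 3 in the other backgrounds. Tlr3, the sensor of double-stranded RNA, fell by 5.20 ± 0.22 (1.07e-09) and Unc93b1, which escorts these receptors to endosomes, fell by 1.48 ± 0.16. Tlr7 differed by 0.03 ± 0.07 and was not called. None of the genes of these lists passed in a comparison between backgrounds.

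**Figure D4:**
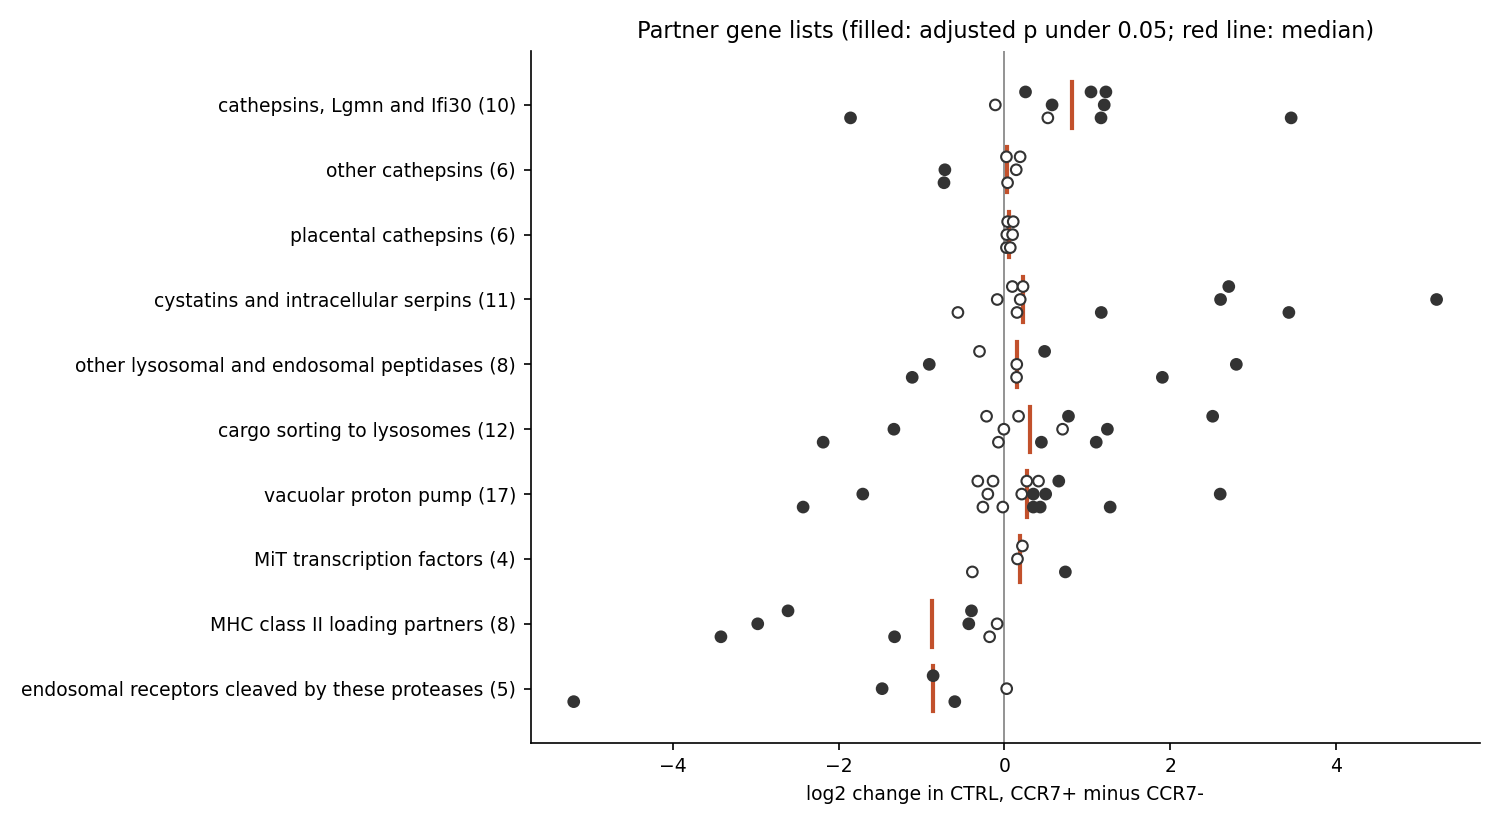
Change with maturation in CTRL (x axis, log2, CCR7+ minus CCR7-) for each measured gene of the protease set and of the partner lists (y axis, with the number measured). Points are genes, filled where the limma adjusted p was under 0.05, and red lines list medians. The median is 0.81 for the 10 proteases and -0.88 for the MHC class II partners, and the inhibitor list has 5 filled points to the right and 0 to the left.

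Genes with a pattern most like that of Lgmn and Ctse, the members with the largest rise and fall, were found by the root mean square difference between 6 centred group means. For Lgmn the 3 nearest were Il4ra, the interleukin 4 receptor chain (0.0832 on the log2 scale), the sulfite oxidase gene Suox (0.123) and Slc22a23 (0.141). For Ctse they were Brix1 (0.099), Cinp (0.124) and Bcap29 (0.125). This is a description over 6 group means of the same 18 arrays.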

How the data were processed

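The authors deposited 1 table of log2 intensities for 18 arrays, made with RMA in the oligo package per the submitters' processing notes. Neither their versions nor the genome build is stated, nor whether the arrays were normalised jointly. Per the labels' protocols, RNA was extracted with the RNeasy Plus Micro kit and amplified with NuGEN Ovation Pico, so small inputs may widen the spread. Such log2 values compress folds, and an array has no read depth.

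Of 35556 probesets, the 21789 that the annotation pairs with 1 gene symbol entered the fits. A further 1621 had several symbols and 12146 had none. Where a gene had more than 1 probeset (999 genes, none of the 10 described), the brightest on average stood for it. Nothing was filtered by level or normalised again. Groups follow the labels. In the CTRL replicate 2 pair the letters of the array codes are inverted relative to the other pairs. A trailing r of unstated meaning marks 2 of 6 CTRL, 4 of 6 Ifnar1-KO and 6 of 6 GF array codes.

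Models were fitted with limma 3.58.1 (lmFit and eBayes) in R 4.3.3 with statmod 1.5.0, with 1 mean per group and 12 residual degrees of freedom. The fitting code was also run on simulated data with independent noise on each array. That run does not cover paired arrays or RNA of other cells. Within each of 9 comparisons, p-values were adjusted by Benjamini-Hochberg over 19938 genes. The SE of a gene rests on its spread in the 6 groups together, which eBayes moderates toward a value drawn from all genes. The moderated SDs given above are the spreads behind these SEs. The median 95% half-width was 0.27 for a maturation change and 0.38 for a difference of changes.

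The members and gene lists were chosen with earlier results of these data known. The genes named were all 10 members, from each list the called genes with the largest rise and fall in CTRL maturation, and the 3 genes most like Lgmn and Ctse. Further genes of the lists were named after their values were seen.

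Alternative fits used array weights, an intensity trend, a replicate block, the trailing r as a term, arrays centred on their medians, only the compared groups, only genes above the median level, probesets averaged per gene or tested singly, and all arrays but 1, or but the Ifnar1-KO replicate 2 pair. Same-numbered arrays deviated together across stages in CTRL (correlations 0.188, 0.147 and 0.1001) and Ifnar1-KO (0.284, 0.321 and 0.236). Each of these exceeded the correlations with arrays of another number, as did GF pair 1 (0.267). GF pairs 2 and 3 (0.00354 and 0.0296) lay below the best other correlation (0.198 and 0.0905). The main fits did not use this pairing, and the replicate block did. Promoters were searched and figures drawn in Python 3.11.15 with matplotlib 3.10.9.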

Additional observations from a re-analysis of the deposited data

How the results depend on the processing

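Over 28 alternatives the 10 genes had 2520 values in the 9 comparisons. Of these, 2511 kept their direction, where called, and their side of the threshold, 6 lost a call, 3 gained one and 0 calls reversed, and the lost and gained calls stand beside Ctss, Ctsl, Ctsd and Ctse above. A call could be lost only in maturation, where 8 of the 10 genes were called in each background. Each gene had 1 probeset, so averaging probesets or testing them singly left its estimate unchanged. Leaving out an array outside the groups compared also left the estimate unchanged. Values that were not called changed sign 76 times, 1 of them in maturation. The number of members called in maturation was 7 to 9 in CTRL and Ifnar1-KO and 8 in GF. With the replicate block 8 members were called in each maturation comparison and no member call changed, the largest adjusted p among the called being 0.0424 for Ctsd in CTRL (limma). With arrays centred on their medians 8.37% of all genes were higher and 15.8% lower in CTRL maturation, a share of 34.6% higher among the calls beside 48.2%, and the median of all genes was -0.03 in place of 0.07. List counts that moved by over 1.5 times with a single array were those of the other cathepsins, other peptidases, cargo sorting, the proton pump and the MiT factors. Counts that moved by less in CTRL were those of the inhibitors (5 to 6 higher), the MHC class II partners (5 to 7 lower) and the endosomal receptors (3 to 4 lower). The count of inhibitors called lower in CTRL went from 0 to 1 in 1 of 28 alternatives. The number of arrays limits the precision, and Ctsl, Ctsd and Ctse have the widest spread.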
